A study of Mus musculus with 4 samples.

Results

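Described here are 777 regions at promoters of protein-coding genes. Each region had an ATAC-seq peak in each control library but no peak in either esculetin library. Peaks of the 4 libraries on chromosomes 1 to 19 and X were merged where they shared at least 1 bp, and a merged region was kept if both controls and no esculetin library had a peak in it and its centre lay within 1 kb of the transcription start site (TSS) of a coding gene. Of 35988 merged regions, 4991 (13.9%) were called in the controls only, and 777 of these lay at a coding TSS. Among the 6584 coding promoter regions called in both controls, the 777 made up 11.8%. They belonged to 764 genes, which is 3.60% of the 21215 coding genes with a known strand. Of these genes, 13 had a pair of such regions, and 60 also had another promoter region that was called in all 4 libraries. The regions were selected on the presence and absence of calls, so their absence from the esculetin lists is the selection itself and not a result. They are called control-only promoters below, and the 4565 coding promoter regions called in all 4 libraries are called shared promoters. Both names stand for the region alone. At 128 of the 777 an esculetin peak lay outside the region but within 1 kb of the same TSS.

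The libraries came from RAW264.7 cells, a mouse macrophage line grown in culture, unmodified in genotype. All cells, controls included, were loaded for 24 h with 25 ug/mL DIL-oxLDL, a dye-labelled form of oxidized LDL. Controls (n = 2) were given DMSO, the solvent, and esculetin-treated cells (n = 2) were given the plant coumarin esculetin at 40 ug/mL over the same 24 h. The labels do not say whether the libraries of a group came from separate cultures, so that the spread between them may be technical.

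In ATAC-seq the Tn5 transposase cuts DNA that is not covered by nucleosomes, and the ends of its fragments pile up where chromatin is open. Promoters of active genes are usually open at the TSS, where the transcription machinery assembles. Many mammalian promoters lie in CpG islands, which are rich in the dinucleotide CpG and in GC boxes and are often open in most cell types, whereas promoters with few CpGs more often belong to genes used in particular cell types and can carry a TATA box.

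Promoter sequences were matched to 614 of the 777 regions through the gene and its nearest listed start. The 6 sequences that follow (RefSeq, GRCm38.p6, the build whose chromosomes are those of mm10) run 5′ to 3′ on the strand of the gene, from 200 bases before the start to 30 bases after it. They show the letters on which the later comparisons of promoter sequence turn. Capitals mark a TATA box (TATAAA) and a PU.1-type motif (GAGGAAGT, here read on the opposite strand) in S100a4, a PU.1-type motif in Cd53, a PU.1-type motif and an AP-1 motif (TGANTCA) in Tlr9, an ISRE-type motif (GAAANNGAA) in Eif2ak2 and CCAAT boxes (CCAAT or, on the opposite strand, ATTGG) in Plk1 and Pclaf. Cd53 also holds an opposite-strand CCAAT box and Plk1 a GC box (GGGCGG), both left in lower case. S100a4 and Pclaf were among the strongest members, Tlr9, Eif2ak2 and Plk1 belonged to the gene lists described later, and Cd53 was chosen after its values were seen.
S100a4, chr3:90603570-90603799, plus strand: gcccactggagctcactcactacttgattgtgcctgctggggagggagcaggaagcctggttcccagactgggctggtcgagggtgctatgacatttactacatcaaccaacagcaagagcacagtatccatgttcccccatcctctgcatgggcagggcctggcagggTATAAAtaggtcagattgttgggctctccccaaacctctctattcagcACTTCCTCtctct
Cd53, chr3:106790120-106790349, minus strand: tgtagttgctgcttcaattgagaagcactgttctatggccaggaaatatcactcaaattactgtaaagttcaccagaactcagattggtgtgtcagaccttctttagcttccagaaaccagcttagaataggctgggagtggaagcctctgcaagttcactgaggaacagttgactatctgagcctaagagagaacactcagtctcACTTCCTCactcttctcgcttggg
Tlr9, chr9:106222398-106222627, plus strand: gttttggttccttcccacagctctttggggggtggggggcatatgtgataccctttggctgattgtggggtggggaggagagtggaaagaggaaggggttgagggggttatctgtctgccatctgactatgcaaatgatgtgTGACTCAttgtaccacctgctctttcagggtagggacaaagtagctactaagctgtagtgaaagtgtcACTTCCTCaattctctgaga
Eif2ak2, chr17:78882543-78882772, minus strand: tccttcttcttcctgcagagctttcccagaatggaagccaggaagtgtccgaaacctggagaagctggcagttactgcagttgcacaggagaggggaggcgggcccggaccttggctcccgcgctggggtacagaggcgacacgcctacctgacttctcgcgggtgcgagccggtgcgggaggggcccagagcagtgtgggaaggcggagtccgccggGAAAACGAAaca
Plk1, chr7:122159235-122159464, plus strand: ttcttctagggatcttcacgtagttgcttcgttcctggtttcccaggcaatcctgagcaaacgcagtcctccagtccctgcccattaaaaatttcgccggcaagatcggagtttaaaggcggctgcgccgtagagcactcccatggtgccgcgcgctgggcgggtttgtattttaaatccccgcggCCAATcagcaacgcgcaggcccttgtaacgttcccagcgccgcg
Pclaf, chr9:65890123-65890352, plus strand: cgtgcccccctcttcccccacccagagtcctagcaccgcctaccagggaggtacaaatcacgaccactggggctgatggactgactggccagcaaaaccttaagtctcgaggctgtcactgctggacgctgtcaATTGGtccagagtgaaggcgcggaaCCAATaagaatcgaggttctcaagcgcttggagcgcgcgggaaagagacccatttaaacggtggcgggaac
The PU.1-type motif lay just past the start in the 3 printed genes that carry it. It was at bases 17 to 24 of S100a4, 6 to 13 of Cd53 and 10 to 17 of Tlr9, counted from 0 at the start. The printed genes were picked as carriers of a motif, and its position in other promoters is not given here. Negative positions lie upstream of the start. The TATA box of S100a4 occupied bases -31 to -26. The CpG content of these promoters differed widely, with an observed over expected ratio of 0.087 at S100a4, 0.25 at Cd53 and 0 at Tlr9, against 0.64 at Eif2ak2, 0.70 at Pclaf and 1.004 at Plk1.

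Some facts of the libraries bear on everything that follows. The control lists held 19595 and 27833 peaks and the esculetin lists 8677 and 12792. The genome-wide background coverage, a measure of depth, stood at 6.51 and 4.08 in the controls, replicate 1 first, and at 4.97 and 4.10 in the esculetin libraries, so that the groups overlapped in depth. A call limit was computed as the lowest summit coverage that, at this background, reaches the lowest −log10 p in the library's list. It was 17, 13, 15 and 13 reads in the same order. Of 16 macrophage genes, a promoter region was called in 7 and 10 in the controls and in 1 and 5 in the esculetin libraries. Spi1, which encodes the macrophage transcription factor PU.1, was called in all 4, whereas Adgre1, Csf1r, Itgam and Aif1 had no promoter region in any library. None of the markers of kidney epithelium (12 genes), other epithelia (10 genes) or lymphocytes (8 genes) had a promoter region in any library, and of 10 fibroblast markers Col3a1 and Twist2 had one in control replicate 2 alone.

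The control-only promoters were weaker than the shared promoters in the controls themselves. Strength is given as summit coverage over background, the number of fragments at the summit divided by the genome-wide background coverage of the same library. Its median over the 777 regions was 4.92 in control replicate 1 (middle 50% 4.30 to 5.69, range 2.92 to 12.1). In control replicate 2 the median was 6.62 (5.64 to 7.84, range 3.68 to 56.6). The shared promoters had medians of 7.07 and 9.81 in the controls and 7.25 and 9.76 in esculetin replicates 1 and 2. Peaks of the control-only promoters had a median width of 301 and 315 bp, against 507 and 519 bp. Within the controls' own lists, ordered by −log10 p, the median control-only promoter stood at percentile 42.6 and 43.5 and the median shared promoter at 80.1 and 75.2. The 1242 coding promoters called in both controls and in 1 esculetin library lay in between, with median coverages of 5.53 and 7.60 and widths of 371 and 382 bp. These values belong to the same calls that chose the regions and are given without a test.

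**Figure D1:**
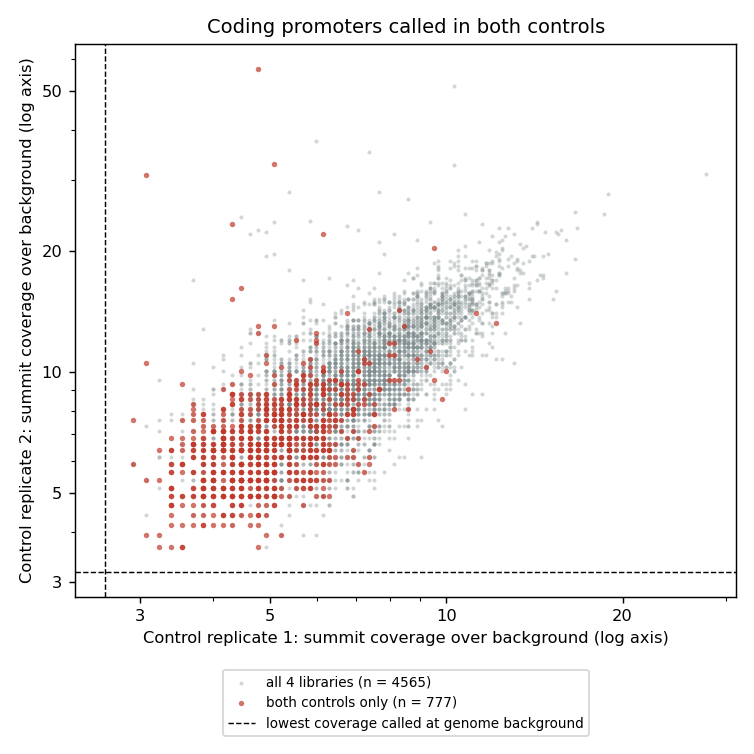
Summit coverage over background in control replicate 1 (x axis, log) and control replicate 2 (y axis, log) of the 777 control-only promoters (red) and the 4565 shared promoters (grey), 1 point per region. Dashed lines mark the computed call limit at genome background, which is not the coverage of a called peak. The red points fill the lower left of the grey cloud, with medians of 4.92 and 6.62 against 7.07 and 9.81, and a few lie far above it in control replicate 2.

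The ranges of the classes overlapped, from 2.92 to 12.1 times background in control replicate 1 for control-only and from 2.92 to 27.8 for shared promoters. The strongest control-only promoter of control replicate 1 reached 12.1 times background, whereas the weakest shared promoter of that library stood at 2.92, the same value as the weakest control-only promoter. Across the 777 regions the coverages in the controls had a Spearman correlation of 0.48, and across the 4565 shared promoters one of 0.73. Both are descriptions over regions of the same pair of libraries, and the range of coverage was narrower in the control-only class. Control replicate 2 was higher than control replicate 1 on this scale by a median factor of 1.34 in the control-only promoters and 1.39 in the shared promoters.

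The strongest control-only promoters were taken as the 25 with the highest percentile in the control where they stood lower. Their coverage spanned 5.84 to 11.2 times background in the first control, and 8.33 to 20.3 in the second. In 22 of the 25 both summits lay within 200 bp of the TSS, and in 21 the nearest esculetin peak was over 10 kb away. Only 3 of them were in one of the 26 gene lists examined (Zfp267, Zfp932 and Atp5j2), and their products have diverse functions.

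Pter, which encodes a protein related to phosphotriesterases, headed this set. Its promoter (chromosome 2, 12923746 to 12924416, mm10) had 8.45 times background in control replicate 1 and 12.99 times in control replicate 2, with summits at -79 and -46 bp from the TSS (negative values lie upstream). The nearest peaks of esculetin replicates 1 and 2 lay 346777 and 346768 bp away. Neither esculetin library had a call in the surroundings of this gene. Iftap, whose product takes part in intraflagellar transport, had 8.91 and 10.8 times background (chromosome 2, 101628668 to 101629249), with summits at -26 and -24 bp. S100a4, which encodes a calcium-binding protein linked to cell motility, had 11.2 and 13.97 times background (chromosome 3, 90603556 to 90603904), and its summits at -28 and -27 bp fell on the TATA box printed above. A separate control-only region of S100a4 had summits 822 and 831 bp into the gene, at 8.14 and 11.8 times background. Gm10130, a predicted gene, had 7.99 and 11.8 times background.

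Mccc2, a subunit of an enzyme of leucine breakdown, had 6.30 and 9.56 times background. Atp5j2, a subunit of the mitochondrial ATP synthase, had 7.99 and 9.56. Angptl2, which encodes a secreted angiopoietin-like protein, had 7.22 and 10.8, and Stc2, which encodes the secreted protein stanniocalcin 2, had 7.07 and 11.3. In these 4 the summits lay at -81 to 7 bp from the TSS. Serpinb8, which encodes a protease inhibitor, had 6.61 and 9.32 times background.

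Med28, a subunit of the Mediator complex, had 7.07 and 10.1 times background. Prmt6, an arginine methyltransferase, had 8.30 and 14.2 times background, with its second summit 551 bp downstream of the TSS. Smyd2, a lysine methyltransferase, had 6.61 and 10.1. Rpp30, a subunit of the tRNA-processing enzyme RNase P, had 5.84 and 8.33. Gpx1, which encodes the glutathione peroxidase that removes hydrogen peroxide, was of another kind. Its control-only region (9.53 and 20.3 times background) had summits 796 and 933 bp downstream of the TSS, inside the gene, while a separate region at its TSS was called in all 4 libraries, with esculetin summits 116 and 26 bp downstream.

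Summits over 200 bp from the TSS were more frequent in the control-only than in the shared promoters. The median distances were close, at 75 and 78 bp against 72 and 71 bp in control replicates 1 and 2. Both control summits lay within 200 bp of the TSS in 478 of 777 regions (61.5%, exact 95% interval 58.0 to 65.0) and in 3400 of 4565 shared promoters (74.5%, 73.2 to 75.7). Both lay more than 200 bp downstream of the TSS in 169 regions (21.8%, 18.9 to 24.8), against 10.6% (9.70 to 11.5) of the shared promoters. Both lay more than 200 bp upstream in 75 (9.65%, 7.67 to 11.9), against 4.86% (4.26 to 5.53). In the remaining 55 the controls fell on different sides of these limits. Intervals here and below are exact Clopper-Pearson intervals and cover counting error only, and no test was made over regions. The coverage did not separate these places, with medians of 4.92 and 6.62 at the TSS and 4.76 and 6.62 downstream. Genes of the downstream regions had a median length of 25225 bp, against 22138 bp for those at the TSS.

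**Figure D2:**
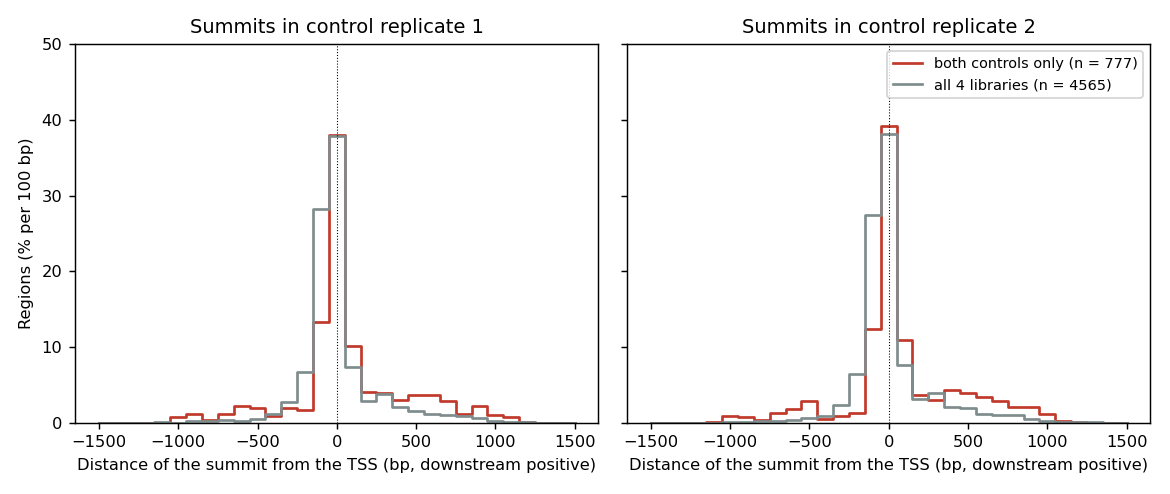
Distance of the summit from the TSS (x axis, bp, downstream positive) in control replicate 1 (left) and control replicate 2 (right) for the 777 control-only (red) and 4565 shared (grey) promoters, as % of regions in bins of 100 bp. Both classes peak at the TSS, the grey line is higher just upstream of it, and the red line is higher beyond 200 bp on the downstream side, where it holds 24.6% of summits in each control against 12.9% and 13.8%.

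The surroundings of the regions were measured next. At 128 of the 777 regions (16.5%, 13.9 to 19.3), esculetin peaks were present within 1 kb of the same TSS but outside the region. In 67 of these 128 that neighbouring peak belonged to a region called in all 4 libraries, and in 12 to regions called in no control. For the other 649 the whole window around the TSS held no esculetin peak. The median distance of a control-only promoter from the nearest esculetin peak was 25342 bp (middle 50% 5337 to 65886), and 527 of 777 (67.8%, 64.4 to 71.1) had none within 10 kb. At 54 regions more than 1 coding gene started within the window, so that the region cannot be given to 1 gene.

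The sequence of the promoter, which the selection did not use, differed between the classes. It was taken around a listed start of the gene within 1 kb of the region's centre, and need not lie in the called region. A gene with regions of both classes can enter both. A ratio of observed over expected CpG of at least 0.6, as in CpG islands, was found in 388 of 614 control-only promoters (63.2%, 59.2 to 67.0) and in 3355 of 3697 shared promoters (90.7%, 89.8 to 91.7). Among all 17274 coding promoter sequences the share was 49.0%. The promoters called in both controls and 1 esculetin library stood between the classes at 75.7% (72.9 to 78.4). The median GC content was 57.7% in the control-only promoters, 63.7% in the shared promoters and 56.3% over all promoters.

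The difference in CpG content was also present within bins of coverage. Between 4 and 5 times background in control replicate 1, 65.5% (58.8 to 71.7) of 223 control-only promoters and 90.0% (86.2 to 93.1) of 311 shared promoters were CpG-rich. Between 5 and 6 times the shares were 65.1% (57.4 to 72.2) and 90.9% (88.5 to 92.9). At 7 times and above, where only 41 control-only promoters had a sequence, the shares were 46.3% (30.7 to 62.6) and 90.1% (88.7 to 91.4). In each of the 5 bins of coverage the intervals of these classes did not overlap.

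**Figure D3:**
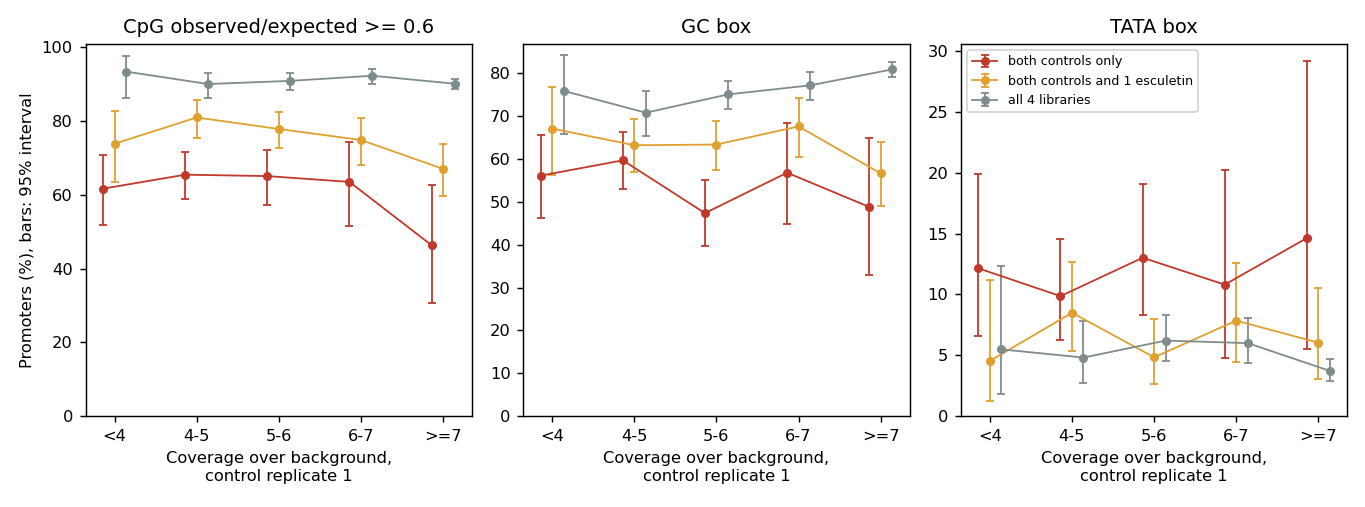
Share of promoters (y axis, %, with exact 95% intervals) that were CpG-rich (left), held a GC box (middle) or a TATA box (right), by coverage over background in control replicate 1 (x axis), for control-only promoters (red), promoters also called in 1 esculetin library (orange) and shared promoters (grey). The red points lie under the grey points in every bin for CpG and for the GC box, where the bars overlap from 4 to 5 times background. For the TATA box the red points lie above the grey points, and the bars overlap in 3 of the 5 bins.

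Motifs were searched next. Each motif was searched as fixed letters on both strands over the 300 bases of each listed promoter. The GC box (GGGCGG), bound by SP1 and KLF factors, was found in 54.6% (50.5 to 58.6) of control-only promoters, 78.1% (76.7 to 79.4) of shared promoters and 46.9% of all coding promoters. From 4 to 5 times background in control replicate 1 its intervals overlapped, at 59.6% (52.9 to 66.1) against 70.7% (65.3 to 75.7). The CCAAT box (CCAAT), bound by NF-Y, was found in 33.9% (30.1 to 37.8), 46.5% (44.9 to 48.1) and 39.6%. Within bins of coverage in control replicate 1 the intervals for the CCAAT box overlapped in all 5 bins, and the direction turned under 4 times background (29.9% against 20.9%) and from 6 to 7 times (45.9% against 43.6%). The NRF1 motif (GCGCATGCG) was found in 1.63% (0.78 to 2.97), 6.14% (5.39 to 6.96) and 2.43%. The ETS motif (CCGGAAG) was found in 16.9% (14.1 to 20.1), 22.5% (21.2 to 23.9) and 12.1%. Within bins of coverage in control replicate 1 the ETS intervals overlapped in 4 of 5 bins, for example at 18.8% against 20.9% from 4 to 5 times background. Control-only promoters also had lower shares than shared promoters of the CREB motif (TGACGTCA, 2.77%, 4.52% and 2.36%), its shorter form (TGACGT, which every longer CREB match contains, 9.93%, 15.9% and 8.81%) and the YY1 motif (AAGATGG, 4.72%, 8.57% and 6.40%). With equal numbers of strongest peaks the YY1 motif stood at 7.5% and 7.47%. The intervals of the full CREB motif overlapped. The E-box (CACGTG) stood at 10.7%, 12.01% and 8.01%, also with overlapping intervals.

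The TATA box, ISRE-type and AP-1 motifs had higher shares in the control-only than in the shared promoters, with intervals that did not overlap over all coverages. The TATA box (TATAAA) was found in 71 of 614 (11.6%, 9.14 to 14.4), against 4.76% (4.10 to 5.50) of shared promoters and 13.4% of all. The ISRE-type motif (GAAANNGAA), read by interferon-regulated factors of the IRF and STAT families, was found in 9.28% (7.11 to 11.9), 5.52% (4.80 to 6.30) and 8.19%. Within bins of coverage in control replicate 1 the ISRE intervals overlapped in all 5 bins, for example 7.69% (4.16 to 12.8) against 6.65% (4.91 to 8.77) from 5 to 6 times background. With only the 8677 strongest peaks of each library this direction turned, at 5.00% of the 80 control-only promoters with a sequence and 5.14% of shared promoters. The AP-1 motif (TGANTCA), bound by FOS and JUN, was found in 6.51% (4.69 to 8.77), 3.49% (2.92 to 4.13) and 7.09%. For the PU.1-type motif (GAGGAAGT) the shares were 4.56% (3.05 to 6.52), 3.00% (2.48 to 3.60) and 3.17%, with overlapping intervals. The motifs of C/EBP (TTGCNNAA, 8.47%, 6.95% and 10.3%), RUNX (TGTGGT, 13.03%, 10.7% and 14.8%) and NF-kB (GGGANTTTC, 1.47%, 0.893% and 1.12%) also had overlapping intervals between control-only and shared promoters, as did ZNF143 (ACTACAA, 4.56%, 4.90% and 3.87%). A match says only that these letters are present.

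The 226 CpG-poor and 388 CpG-rich control-only promoters had the same median coverage, 4.92 and 6.62 in control replicates 1 and 2. The CCAAT box was in 42.0% (35.5 to 48.8) of the CpG-poor and 29.1% (24.6 to 33.9) of the CpG-rich promoters. The GC box, whose letters contain a CpG, was in 32.3% (26.3 to 38.8) and 67.5% (62.6 to 72.2). The intervals overlapped for the ISRE-type motif (11.9%, 8.02 to 16.9, against 7.73%, 5.28 to 10.9), the PU.1-type motif (7.52%, 4.44 to 11.8, against 2.84%, 1.42 to 5.02) and the TATA box (12.8% against 10.8%). Both summits were at the TSS in 66.4% of the CpG-poor and 58.0% of the CpG-rich promoters.

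The genes were then described by role, with 26 lists of genes. Over all coding genes with a promoter region called in both controls, 764 of 6431 (11.9%) had a control-only region, and each list's count is read beside that share. A share near it says nothing about the list, and none was tested.

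Of 6 macrophage identity genes called in both controls, Fcgr1 and Ptprc (33.3%) were control-only. Fcgr1, which encodes a high-affinity IgG receptor used in phagocytosis, had 4.76 and 6.62 times background (chromosome 3, 96293869 to 96294193), close to the class medians, with summits at -66 and 3 bp from the TSS. Ptprc, which encodes the leukocyte phosphatase CD45, had 5.07 and 6.13 times background, both summits lying 418 bp into the gene. Cd53, a tetraspanin of leukocytes and not in this list, was stronger, at 9.22 and 10.3 times background (chromosome 3, 106789986 to 106790355), with summits 26 and 24 bp after the TSS, beside the PU.1-type motif printed above.

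Among genes of phagocytosis and actin remodelling, 8 of the 24 called in both controls were control-only and 12 were shared (the same gene can have regions of several classes). They included Fcgr1, Dock2, Pik3r1, Dock1, Vav3, Pik3cd and Elmo1, of which the last 2 stood below the 6 that the naming rule takes and were added after their values were seen. Dock2, Dock1 and Vav3 encode exchange factors that switch on Rac, and Elmo1 a partner of Dock proteins in engulfment. The peaks of these named genes were of middle or low strength, from 4.15 to 5.22 times background in control replicate 1 and from 4.41 to 8.58 in control replicate 2 (list medians 4.61 and 7.11). At Dock2 the control-only region was at the TSS (at -9 and 24 bp, with 4.46 and 8.58 times background), and esculetin replicate 2 had a peak 752 bp into the gene. Dock1 had 2 control-only regions, with summits at -66 and -130 bp in the first and at -991 and -1010 bp in the second. Of the 9 control-only regions of this list, 4 had both summits at the TSS. An esculetin peak lay within 1 kb of the same TSS at 3 of the 9.

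Pik3r1, the regulatory subunit of PI3-kinase, had a control-only call beside a shared promoter. The control-only region lay upstream (summits at -526 and -515 bp, 5.22 and 7.11 times background). Its TSS region was called in all 4 libraries, with esculetin summits at -27 and 36 bp and 7.45 and 11.0 times background. A control-only region at a gene is thus not the same as a promoter without an esculetin call.

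Of 21 genes of lipid uptake and cholesterol handling called in both controls, 4 were control-only and 16 were shared. Plin2, which coats lipid droplets, had 5.22 and 6.86 times background 687 bp into the gene, and Nr1h2, which encodes the oxysterol receptor LXR beta, had 7.38 and 5.88 times background 448 and 502 bp into the gene. Esculetin replicate 2 had a peak at the TSS of Nr1h2 (6 bp after it) and 150 bp after that of Plin2, and esculetin replicate 1 had neither. Lpl, which encodes lipoprotein lipase, had weak peaks at its TSS in the controls (4.46 and 4.66 times background) and no esculetin peak within 86341 bp. Unlike Plin2 and Nr1h2, Lpl thus had no esculetin peak within 1 kb of its TSS.

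Of 18 genes of NF-kB, Toll-like receptor and cytokine signalling called in both controls, 2 were control-only, Tlr9 and Nfkbiz, and 11 were shared. Tlr9, the endosomal receptor for CpG-containing DNA, had 5.53 and 7.84 times background with summits at -13 and -34 bp. Nfkbiz, which encodes a nuclear IkB protein, had 6.30 and 5.88. Of 12 interferon-stimulated genes called in both controls, 3 (25.0%) were control-only and 5 were shared. Eif2ak2, which encodes the double-stranded RNA-activated kinase PKR, had 7.07 and 8.33 times background, Usp18, a protease that removes ISG15, had 5.84 and 7.60, and Oas2, an oligoadenylate synthetase, had 3.53 and 5.88. All 3 were at the TSS with no esculetin peak within 33332 bp. At the Eif2ak2 region 2 coding genes started within the window, so that it cannot be given to Eif2ak2 alone. Of 13 genes of the C/EBP, AP-1 and ATF families called in both controls, Atf6, a sensor of endoplasmic reticulum stress, was the only control-only member (5.07 and 4.90), and 12 were shared.

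**Figure D4:**
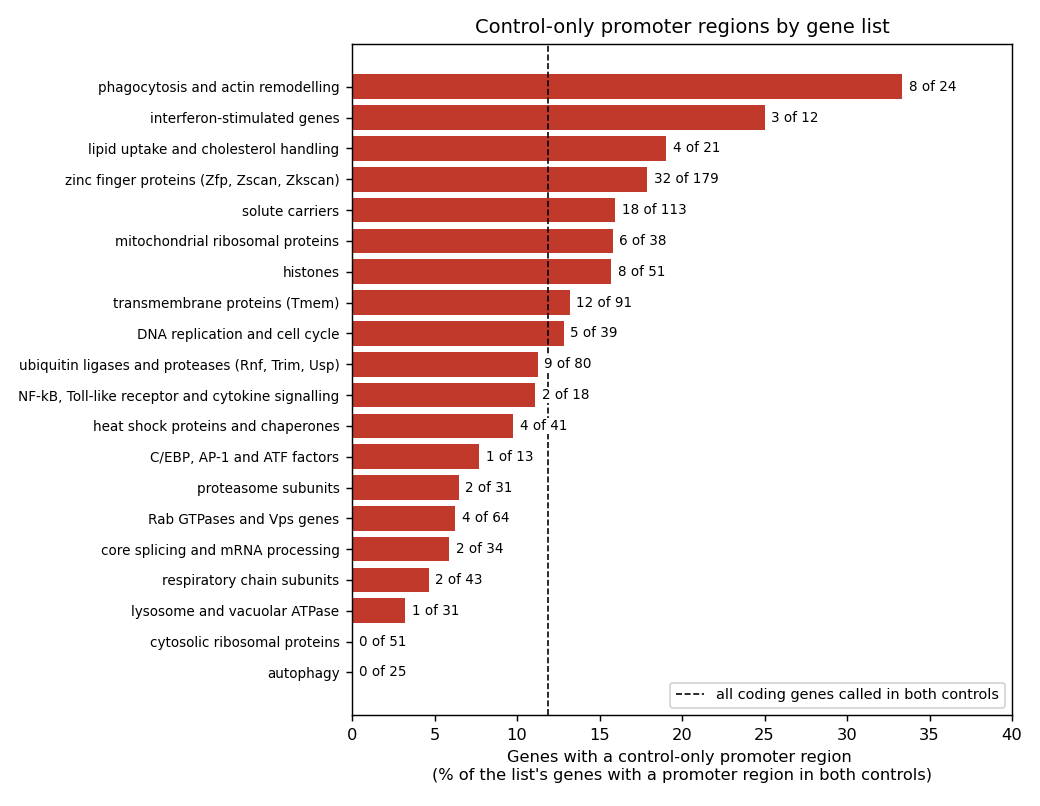
Share of the genes of each list that had a control-only promoter region (x axis, % of the list's genes with a promoter region in both controls), with the counts beside the bars and a dashed line at the share over all coding genes, 11.9%, for the lists with at least 10 such genes. Phagocytosis and actin remodelling stands highest at 8 of 24, and autophagy and cytosolic ribosomal proteins stand at 0 of 25 and 0 of 51.

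Genes of cell division stood near the share over all genes, with 5 control-only of 39 called in both controls and 30 shared. Plk1, the mitotic polo-like kinase, had 6.15 and 7.35 times background with summits at -64 and -40 bp, just upstream of the CCAAT box printed above. Tyms, thymidylate synthase, had 4.76 and 4.90, and Pola1, the catalytic subunit of DNA polymerase alpha, had 4.46 and 5.39. Mcm5, a subunit of the replicative helicase, and E2f1, a transcription factor of the G1 to S transition, were of the Pik3r1 kind: the control-only summits lay at -720 and -725 bp at Mcm5 and 411 and 710 bp downstream at E2f1, and their TSS regions were called in all 4 libraries. Outside the list, the DNA repair helicase Rad54l had 9.99 and 10.1 times background (chromosome 4, 116123521 to 116123962), and Pclaf, which binds the sliding clamp PCNA, had 8.61 and 9.07. Both were at the TSS with no esculetin peak within 1 kb of it.

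Housekeeping lists differed in their counts. None of 51 genes of cytosolic ribosomal proteins and none of 25 autophagy genes called in both controls was control-only, while 44 and 19 were shared. Of 31 genes of the lysosome and vacuolar ATPase, only Ctsz, which encodes the protease cathepsin Z, was control-only (5.84 and 6.62 times background, percentiles 11.3 and 2.6). The counts were 2 of 43 for respiratory chain subunits, 2 of 31 for proteasome subunits (Psmb1 and Psmd1), 2 of 34 for splicing and mRNA processing (U2af2 and Hnrnpf), 4 of 64 for Rab and Vps genes, 4 of 41 for chaperones and 9 of 80 for ubiquitin ligases and proteases. For mitochondrial ribosomal proteins the count was 6 of 38 (Mrps21, Mrps30, Mrpl15, Mrpl55, Mrpl33 and Mrpl20), with 19 shared. Mrps30 was the strongest of these in control replicate 2 (12.99 times background, and 4.76 in control replicate 1), and all but Mrpl33 had both summits within 200 bp of the TSS. Transmembrane (Tmem) genes stood at 12 of 91.

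Gene families were counted in the same way. Zinc finger genes had 32 control-only genes of 179 called in both controls (17.9%), and 93 were shared. By the percentile in the control where a region stood lower, Zfp267 (6.15 and 8.83 times background) and Zfp932 (5.99 and 11.8) led the family, while the highest coverages were 6.45 in control replicate 1 and 12.99 in control replicate 2, at other members. Of its regions, 21 of 33 had both summits at the TSS. Solute carriers had 18 of 113 (15.9%), with 73 shared. Their regions lay elsewhere: of 19, only 3 had both summits at the TSS and 13 had both downstream, among them Slc36a4, a lysosomal amino acid transporter (557 and 471 bp, 7.07 and 10.1 times background), and Slc2a3, the glucose transporter GLUT3 (903 and 914 bp, 5.07 and 7.84). Histone genes had 8 of 51, with 36 shared. Of these 8 genes, 7 lie on chromosome 13, where histone genes form clusters of similar copies. As reads that map to several copies were removed, their calls are uncertain. Of 941 olfactory receptor genes, 3 were called in both controls, and 2 of these (66.7%), Olfr433 and Olfr1511, were control-only at low coverage (3.69 and 6.62, and 3.38 and 4.66), and none was shared.

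The coverage at which these promoters were called in the controls was compared with what the esculetin libraries could call. Each control's summit coverage and local background were scaled by the ratio of the genome-wide backgrounds, and the resulting −log10 p was set against the lowest one in each esculetin list. Of 777 regions, 752 (96.8%, 95.3 to 97.9) would pass in both esculetin libraries from both controls. The regions were selected on passing the controls' own limits, which lie near those of the esculetin libraries (2.61 and 3.19 against 3.02 and 3.17 times background), so a high share follows from the selection and supports nothing. From control replicate 1 alone the share was 99.2% for esculetin replicate 1 and 96.8% for esculetin replicate 2, and from control replicate 2 it was 100% for both. For the shared promoters these shares lay between 99.8% and 100%. With the limit raised to percentile 10 of −log10 p in each esculetin list, a setting chosen after seeing the data, the share was 63.3%. The 5 regions with the widest margin were those of Iftap, Rad54l, Pter, S100a4 and Pclaf, at 13.98 to 17.6 units of −log10 p above the limit. Only peak calls were used, so the signal of the esculetin libraries at these regions was not measured here.

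The share of coding promoters called in no esculetin library fell with the coverage in the controls. By coverage in control replicate 1 it was 37.6% under 4 times background (354 regions), 29.7% from 4 to 5, 14.8% from 5 to 6, 7.34% from 6 to 7, 2.82% from 7 to 8 and 0.48% at 10 and above (419 regions). Among the 354 weakest promoters, 34.2% were called in esculetin replicate 1 and 60.2% in esculetin replicate 2, and at 10 times and above 96.2% and 99.3%. In each bin fewer were called in esculetin replicate 1, the library with the shortest list. Of the promoters that only 1 esculetin library lacked, 1085 were missing from esculetin replicate 1 and 157 from esculetin replicate 2. By coverage in control replicate 2 the share called in neither fell from 39.5% between 4 and 5 times background to 1.93% at 10 and above. As these calls define the regions, the shares are a description.

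**Figure D5:**
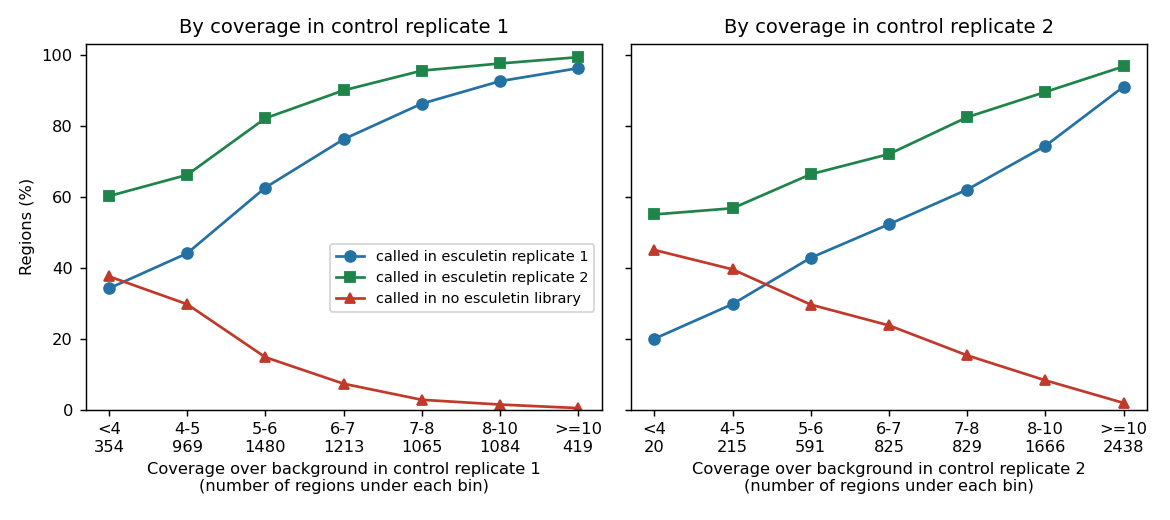
Share of the 6584 coding promoters called in both controls (y axis, %) that were called in esculetin replicate 1 (blue), in esculetin replicate 2 (green) or in no esculetin library (red), by coverage over background in control replicate 1 (left) and control replicate 2 (right), with the number of regions under each bin. The red line falls from 37.6% to 0.48% in the left panel, and the blue line lies under the green line in every bin.

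The number of control-only promoters moved with the peaks and libraries used. When only the 8677 strongest peaks of each library were used, 97 coding promoters were control-only, of which 58 were among the 777. With esculetin replicate 2 as the only esculetin library there were 941 control-only promoters, and with esculetin replicate 1 as the only one 1883. The first setting also drops weaker control peaks, and the others ask fewer libraries to lack a peak. List length alone was therefore not isolated, and how much of the class comes from the shorter esculetin lists was not tested.

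Other peaks of the same genes were counted in the same 4 lists. A gene was counted if it had a peak in its body or within 10 kb of its TSS that did not belong to a coding promoter region. Of the 764 genes, 34.3% and 49.2% had such a peak in the controls, and 8.90% and 18.1% in the esculetin libraries, replicate 1 first. Over all 21215 coding genes the shares were 24.9%, 39.2%, 9.24% and 15.2%. The excess of the 764 genes was 9.70 ± 0.45 percentage points in the controls and 1.25 ± 2.26 in the esculetin libraries (mean ± SD, n = 2 each), a difference of -8.45 points. The peaks come from the lists on which the regions were selected, so this difference is not independent of the selection, supports nothing and is given as a description with no test.

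The limit of 1 kb cut through a continuous range of distances. The members nearest inside it were the regions of Galnt10, Bbs12 and Smim27, with centres 999, 994 and 994 bp from the TSS and coverages of 3.84 to 4.30 in the first and 5.15 to 6.13 in the second control. The control-only regions nearest outside it were those of Rbbp6, Krcc1 and Msh4, at 1009, 1010 and 1011 bp, with 4.61 to 5.84 and 7.84 to 11.0.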

How the data were processed

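ATAC-seq was performed on 2 control and 2 esculetin libraries of RAW264.7 cells. The authors trimmed reads (Trim-Galore), mapped them to mm10 (Bowtie2), discarded duplicate and multiply mapped reads (Sambamba) and ran MACS2 on each library; its options are not given in the sources used here. The deposited lists give for each peak a score, a fold ratio over background, −log10 p and −log10 q values and the summit offset. The peak names inside the files number the esculetin libraries 2 and 3, whereas the labels number them 1 and 2; groups and numbers follow the labels. Whether replicate numbers pair the libraries is not known. The correlation of deviations was -0.086 over calls, but with 2 libraries per group it cannot decide this.

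Summit coverage and local background were solved from the fold and −log10 p, which MACS2 computes with a pseudocount of 1 and a Poisson distribution (99.94% to 99.99% of peaks solved; the procedure was tested on simulated data). TSSs were the 5′ ends of coding genes in RefSeq GRCm38.p6, with the strand from the RefSeq promoter table (17274 genes) or, by symbol, from GENCODE (3941 genes); 21215 of 21631 coding genes had one. Exon and intron annotation of mm10 was not used here. Genes were named by rule: the 25 members highest in their lower percentile, up to 6 per gene list, the 3 nearest on each side of 1 kb, up to 6 sequences and the 5 widest margins; others are said to be chosen after their values were seen. Some genes that the rule takes are not reported here. Members, gene lists and motifs were chosen with earlier results of these data known. The lists hold no read counts, so precision is limited by the number of libraries. Scripts ran under Python 3.11.15 with SciPy 1.17.1, NumPy 2.4.6 and pandas 2.3.3, and plots were drawn with matplotlib 3.10.9.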

Additional observations from a re-analysis of the deposited data

How the results depend on the processing

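The number of control-only promoters (777) stayed within 1.5 times in 10 of 14 alternatives. It was 97 with equal numbers of strongest peaks, and leaving out a library in turn gave 941 (without esculetin replicate 1) to 1883 (without esculetin replicate 2), with 1743 and 1367 without control replicates 1 and 2, where fewer libraries have to meet the rule. The share of regions that would pass the limit of both esculetin libraries (96.8%) was 89.1% with all lists limited to a −log10 q of at least 2, 84.5% with equal numbers of strongest peaks, 99.2% with the genome-wide background, 63.3% with the limit at percentile 10 of each esculetin list, and 92.5% to 100% without 1 library. The median distance of the control summits from the TSS (76.5 bp) followed the window: 51.3 bp with a TSS window of 500 bp, 136 bp with 2 kb and 116 bp with either end of any coding gene. It was 64.0 bp where an esculetin peak within 500 bp counted as present, 62.5 bp without regions that had an esculetin peak within 1 kb of the TSS, 66.3 bp with the starts of the promoter table added, 51.5 bp with equal numbers of strongest peaks, and 62.0 to 261 bp without 1 library. The difference in other peaks lay between -5.52 and -10.3 points over 16 alternatives, each of which selects on the same lists, so that its sign shows nothing about stability. With a replicate block it was -8.45, where the paired exact test cannot go below 0.5. In the main selection 7 of 16 motifs were more frequent in control-only than in shared promoters, and 7 or 8 were in each of the 14 alternatives, but not always the same ones. With equal numbers of strongest peaks the direction turned for ISRE (5.00% of control-only against 5.14% of shared promoters) and YY1 (7.5% against 7.47%), and ZNF143 turned in 4 alternatives. The other 13 motifs kept their direction in all 14. CpG-rich promoters made up 56.3% to 71.6% of the control-only and 88.2% to 91.2% of the shared promoters over them. The added starts and the percentile limit were chosen after seeing the data. With 2 libraries per group the exact permutation test cannot go below 0.33, and calls without read counts cannot show how much signal a library without a call had.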

Other observations

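The 5 control-only promoters in which control replicate 2 most exceeded control replicate 1 are given here, a number chosen after their values were seen. H1f0, an intronless linker histone gene, had 4.76 times background in control replicate 1 and 56.6 times in control replicate 2, with summits 200 and 850 bp downstream of the TSS. Ppp1ccb had 3.07 and 30.9 times background, Aldoart1 5.07 and 32.8, Gm4737 4.30 and 23.3, and Sephs2 4.46 and 16.2, all with both summits 560 to 1175 bp downstream. These 5 genes were 2052 to 2335 bp long, against a median of 23212 bp over all 777 regions. The next in this order, Dapk3, was a gene of 10211 bp with summits at -1032 and -997 bp from the TSS (6.15 and 22.1 times background). Some of them carry the names of gene copies (Ppp1ccb for Ppp1cc, Aldoart1 for Aldoa), which share sequence with their parent genes, so their calls are uncertain. The cause of the difference between the controls was not tested. In the list of control replicate 1 these 5 regions stood at percentiles from 2.32 (Ppp1ccb) to 58.9 (Aldoart1).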
